A study of Mus musculus with 2 samples.

Results

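The 10 genes *Clock*, *Arntl*, *Per1*, *Per2*, *Per3*, *Cry1*, *Cry2*, *Dbp*, *Nr1d1* and *Nr1d2* form the core of the mammalian circadian clock and were taken by gene name from the expression table. They had 42 of the 128603 listed transcripts and were 10 of 51804 gene names. Values are FPKM, fragments scaled by transcript length and by the mapped total, given per Ensembl transcript, and a gene's level is the sum of FPKM over its transcripts. The experiment compared *Mir125b-2* m-/p+ mice (mKO), which lack the maternal copy of the microRNA gene *Mir125b-2* and keep the paternal one, with wild-type (WT, m+/p+) mice. Both were C57BL/6 mice at postnatal day 0, and RNA from 6 brains per genotype was pooled into 1 library, so there is no replicate, no error between genotypes and no test. In the labels the tissue is whole brain but the protocol isolates hippocampus, and the time of day of dissection is not given in the sources used here.

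In the clock, the transcription factors CLOCK and ARNTL (also called BMAL1) bind E-box sequences as a pair and activate the *Per* and *Cry* genes, whose proteins return to the nucleus and repress that pair. A second loop runs through the nuclear receptors REV-ERBα (*Nr1d1*) and REV-ERBβ (*Nr1d2*), which are activated through E-boxes and repress *Arntl* through ROR elements, and an output arm runs through DBP, which binds D-boxes. In adult mouse tissues *Arntl* transcripts peak at the opposite time of day from those of *Nr1d1* and *Dbp*, so the level of each in a library depends on when the tissue was taken.

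The FPKM of all transcripts summed to 1748660 in the mKO library and 1736520 in the WT library. The depth in reads is unknown, and scaling to the same sum moved log2 values by 0.01. Defining markers of neurons, glia, microglia, endothelium and erythroid cells were present in both libraries, as were those of forebrain, midbrain and hindbrain. The summed ratio of mKO to WT ran over these lists between 0.87 for midbrain and hindbrain and 1.02 for hypothalamus, with endothelium at 0.891. Within the hypothalamic list single genes lay on both sides. Pineal and photoreceptor markers, of which 4 of 5 were below 0.3 FPKM, summed to 1.07 FPKM in mKO and 0.309 FPKM in WT. Their part in the clock gene values was not tested, and in such mixed tissue fewer cells of a type and less RNA per cell cannot be told apart. *Mir125b-2* and *Mir125b-1* precursors were listed at the floor value of 1e-05 FPKM, which stands in place of 0, in mKO and in WT, so they give no check of the genotype.

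The microRNA and its match among the clock genes are shown because the deleted gene acts by pairing through its seed. *Mir125b-2* (chr16:77646279-77646300 for the mature 5p arm, plus strand, GRCm38.p6, RefSeq) and *Mir125b-1* (chr9:41581940-41581961, plus strand) encode the same mature miR-125b-5p, with the seed, bases 2 to 8, in capitals:
miR-125b-5p: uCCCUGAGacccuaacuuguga
The 3′UTRs of the coding transcripts were searched for CTCAGGG, the 7 bases that pair with this seed. Only *Clock* held it, at 1 position that lies in the 3′UTR of 2 of its coding transcripts (chr5:76213828-76213852 for the stretch shown, minus strand, GRCm38), at base 2856 of the 3′UTR, with the match in capitals:
*Clock* 3′UTR: agctctatcCTCAGGGtagcattta
The base after the match is not an A. Among the most abundant coding transcripts of all genes, 14.1% of 13722 held a match. The 3′UTRs searched had a median of 1250.5 bases in the clock genes and 1054 bases in all genes. A match of letters is a description and does not show a site.

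Promoter windows, from 250 bases before to 50 bases after each gene start, were read from RefSeq (GRCm38.p6) for 9 of the 10 genes, in 13 windows, and searched on both strands for the elements through which the loop runs. Positions count from the gene start, with the element in capitals:
*Per1* E-box, position -166 (chr11:69098774-69098797, plus strand): acccaagtcCACGTGcagggatgt
*Cry1* E-box, position -60 (chr10:85185100-85185123, minus strand): gccggtggtCACGTGgggtgcatg
*Per3* D-box, position -205 (chr4:151044854-151044879, minus strand): acccgcgcgTTATGTAAggtactcgg
*Per3* D-box, position -158 (chr4:151044807-151044832, minus strand): cgcccgcggTTATGTAAcccccgccg
*Arntl* ROR element, position 27 from the later of its RefSeq starts (chr7:113207528-113207556, plus strand): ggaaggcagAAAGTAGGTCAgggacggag
The E-box CACGTG was in 7.15% of 32851 windows of all genes, the D-box TTANGTAA in 2.32% and the ROR element in 0.384%. The cAMP response element TGACGTCA was in none of the 13 clock gene windows and in 1.79% of all windows. By their letters alone, *Per1* and *Cry1* carried an E-box, *Per3* a pair of D-boxes and *Arntl* a ROR element, and the other genes with a window held none of these in it.

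At gene level, all 10 clock genes were detected in both genotypes, and 9 of them were within 1.1-fold, *Cry1* only just at a ratio of 0.910. Over all genes the median distance, given below, is also within 1.1-fold, and the share of all genes within it was not counted. The order of the genes by FPKM was the same in both libraries, *Cry2*, *Clock*, *Per1*, *Cry1*, *Arntl*, *Nr1d2*, *Dbp*, *Per2*, *Per3* and *Nr1d1* from highest to lowest. No clock gene was more than 1.2-fold higher in mKO, where 10% of the 15686 genes averaging at least 1 FPKM over the libraries were, and 1 clock gene, *Dbp*, was more than 1.2-fold lower, where 10.3% of those genes were. With 10 genes, 0 and 1 are near these shares. The median log2 ratio (mKO over WT, 0.1 FPKM added to both, which understates the change of low genes) was -0.04 over the clock genes and 0.0043 over all genes. The median distance from 0 was 0.08 over the clock genes and 0.11 over all genes. The summed FPKM of the 10 genes was 72.4 in mKO and 74.2 in WT.

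**Figure D1:**
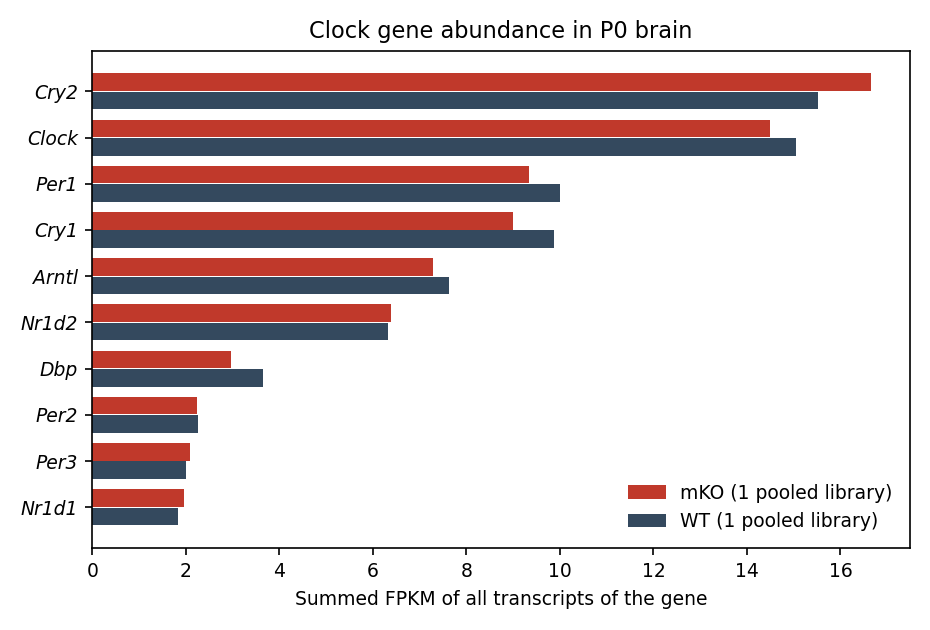
Summed FPKM (x axis, linear from 0) of the 10 clock genes (y axis), with a red bar for mKO above a dark bar for WT, 1 pooled library each and so no error bars. The order of the genes is the same in both libraries, from *Cry2* at 16.7 and 15.5 FPKM to *Nr1d1* at 1.97 and 1.83 FPKM, and *Dbp* at 2.97 and 3.66 FPKM has the widest relative gap.

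The activator pair, on which every other arm of the loop depends, was nearly level. *Clock* (ENSMUSG00000029238, chr5:76209868-76304792, minus strand), a basic helix-loop-helix factor with histone acetyltransferase activity, had 14.5 FPKM in mKO and 15.0 FPKM in WT (log2 -0.05). *Arntl* (ENSMUSG00000055116, chr7:113207465-113314126, plus strand), its partner and the one clock gene whose loss alone stops behavioural rhythms in mice, had 7.30 FPKM in mKO and 7.64 FPKM in WT (log2 -0.07). Of the genes with an FPKM between 0.5 and 2 times that of the gene, 66.5% lay at least as far from 0 as *Clock* and 68.5% as far as *Arntl*, so both differences were ordinary for these libraries. The ratio of *Clock* to *Arntl* was 1.99 in mKO and 1.97 in WT.

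*Clock* is the clock gene with the miR-125b-5p match, and its transcripts differ in whether they carry it. The most abundant coding transcript, ENSMUST00000202651, with a 3′UTR of 6831 bases, had 5.89 FPKM in mKO and 5.90 FPKM in WT. The other with the match, ENSMUST00000075159, with a 3′UTR of 4522 bases, had 1.53 FPKM in mKO and 1.96 FPKM in WT. The third coding transcript, ENSMUST00000202122, ends at base 76213853 before the match, and had 0.939 FPKM in mKO and 0.667 FPKM in WT. The pair with the match summed to 7.41 FPKM in mKO and 7.86 FPKM in WT (log2 -0.08). The transcript without it had a log2 ratio of 0.44, or 0.49 with no pseudocount. All transcripts between 0.3 and 1 FPKM had a median distance from 0 of 0.57 with no pseudocount, so this was ordinary. The 3 coding transcripts overlap, and an estimate per transcript divides shared fragments among them. The part of the match in these values was not tested. Of the transcripts without a coding annotation, ENSMUST00000201052, a retained-intron transcript, had 2.72 FPKM in mKO and 3.08 FPKM in WT. ENSMUST00000200957 had 2.04 FPKM in mKO and 2.18 FPKM in WT, and ENSMUST00000202857 had 1.38 FPKM in mKO and 1.26 FPKM in WT. Together they made up 42.4% of *Clock* FPKM in mKO and 43.3% in WT, and a pseudogene, *Ube2n-ps1*, lies within the gene on the same strand. The shares of the 6 *Clock* transcripts shifted by 4.58% in all.

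Most of *Arntl* came from the coding transcript ENSMUST00000047321, with 5.43 FPKM in mKO and 5.88 FPKM in WT. A second coding transcript, ENSMUST00000211770, which starts downstream, had 0.388 FPKM in mKO and 0.503 FPKM in WT. The coding transcripts thus had a log2 ratio of -0.13. The retained-intron transcript ENSMUST00000211547 went the other way, with 0.930 FPKM in mKO and 0.641 FPKM in WT, and transcripts without a coding annotation were 20.2% of *Arntl* in mKO and 16.4% in WT.

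The Period genes encode the proteins that carry the repressor complex into the nucleus, and PER1 and PER2 are the limiting parts of it. *Per1* (ENSMUSG00000020893, chr11:69095217-69109960, plus strand), which also responds to light and hormones, had 9.34 FPKM in mKO and 10.01 FPKM in WT (log2 -0.10). *Per2* (ENSMUSG00000055866, chr1:91415982-91459324, minus strand) had 2.24 FPKM in mKO and 2.27 FPKM in WT (log2 -0.02). *Per3* (ENSMUSG00000028957, chr4:151003652-151044665, minus strand), which is not required for behavioural rhythms in mice, had 2.09 FPKM in mKO and 2.00 FPKM in WT (log2 0.05). As sums, then, the Period genes lay close together in the genotypes, at 13.7 FPKM in mKO and 14.3 FPKM in WT. Of genes of similar FPKM, 49.9% lay at least as far from 0 as *Per1*, 95.1% as far as *Per2* and 84.8% as far as *Per3*.

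The near-equal sum of *Per1* held opposite differences among its transcripts. The full-length coding transcript ENSMUST00000021271 (4671 bases), whose start carries the E-box shown above, had 4.62 FPKM in mKO and 3.44 FPKM in WT. The coding transcript ENSMUST00000101004 (3507 bases), which starts upstream and ends within the gene, had 1.40 FPKM in mKO and 2.14 FPKM in WT. A 496-base coding fragment near the 5′ end, ENSMUST00000132462, had 1.95 FPKM in mKO and 4.43 FPKM in WT. ENSMUST00000142392, which is annotated as subject to nonsense-mediated decay, had 1.37 FPKM in mKO and was at the floor in WT, and no fold is given for it. The full-length transcript was therefore 49.4% of *Per1* in mKO and 34.4% in WT, and it was the most abundant *Per1* transcript in mKO but came after the 496-base fragment in WT. In all, 29.7% of *Per1* FPKM lay on other transcripts in mKO than in WT, a shift that 4.10% of 4565 genes of similar FPKM equalled or passed.

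These *Per1* transcripts overlap along most of their length, and an estimate per transcript divides shared fragments among them. ENSMUST00000101004 and the decay transcript, which end at nearly the same place, together had 2.77 FPKM in mKO and 2.14 FPKM in WT. Both long coding transcripts, ENSMUST00000021271 and ENSMUST00000101004, together had 6.02 FPKM in mKO and 5.58 FPKM in WT. The log2 ratio of *Per1* was -0.33 over its coding transcripts alone, against -0.10 over all of them, and the decay transcript is the one transcript with a level that the coding sum leaves out. The long coding pair had a log2 ratio of 0.11, so among coding transcripts the lower sum in mKO lay in the 496-base fragment.

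*Per3* showed a shift of similar size at lower levels. Its full-length coding transcript ENSMUST00000103204 (5999 bases) had 0.714 FPKM in mKO and 1.12 FPKM in WT. The processed transcript ENSMUST00000138052 (3663 bases), from the 3′ part of the gene and without a coding annotation, had 0.870 FPKM in mKO and 0.301 FPKM in WT, a ratio of 2.89. The coding transcript was 34.2% of *Per3* in mKO and 56.0% in WT, and a share of 28.3% lay on other transcripts. At this lower level such shifts were common, since 31.2% of 1783 genes of similar FPKM equalled or passed it. *Per3* lies inside the span of *Camta1*, on the same strand, a gene with 40.2 FPKM in mKO and 41.7 FPKM in WT, and the part of *Camta1* fragments in the low *Per3* values was not tested. *Per2* had 1 transcript above 0.3 FPKM, ENSMUST00000069620, which carried its whole level.

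**Figure D2:**
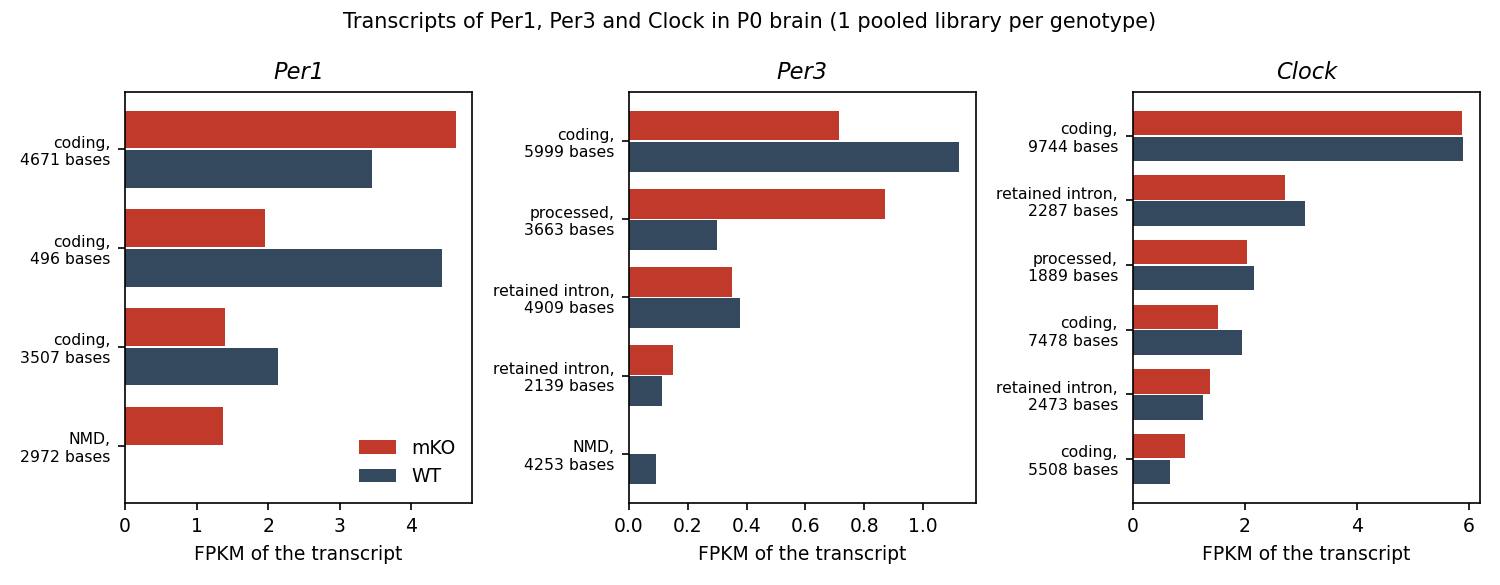
FPKM (x axes, linear from 0 and different in each panel) of the transcripts of *Per1*, *Per3* and *Clock* above 0.05 FPKM in either library, each named by annotation and length, with a red bar for mKO above a dark bar for WT and 1 pooled library each (NMD, annotated as subject to nonsense-mediated decay). In *Per1* and *Per3* transcripts of the same gene lie on opposite sides, as for the 496-base *Per1* fragment at 1.95 and 4.43 FPKM, while the bars of *Clock* stay closer.

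The cryptochromes are the main repressors of CLOCK and ARNTL in the complex, and loss of *Cry1* shortens while loss of *Cry2* lengthens the period in mice. *Cry1* (ENSMUSG00000020038, chr10:85131700-85185064, minus strand) had 8.99 FPKM in mKO and 9.88 FPKM in WT (log2 -0.13). *Cry2* (ENSMUSG00000068742, chr2:92403646-92434043, minus strand), the most abundant clock gene here, had 16.7 FPKM in mKO and 15.5 FPKM in WT (log2 0.10). The cryptochromes differed in opposite directions, so that their sum was 25.6 FPKM in mKO and 25.4 FPKM in WT, and the ratio of *Cry2* to *Cry1* was 1.85 in mKO and 1.57 in WT. Neither difference stood apart from genes of similar FPKM, of which 37.5% lay at least as far from 0 as *Cry1* and 41.9% as far as *Cry2*.

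*Cry1* came almost whole from its coding transcript ENSMUST00000020227, with 8.81 FPKM in mKO and 9.73 FPKM in WT. The main coding transcript of *Cry2*, ENSMUST00000090559, had 11.0 FPKM in mKO and 11.1 FPKM in WT. The excess of *Cry2* in mKO thus lay outside its main transcript. It was in the processed transcript ENSMUST00000125488, with 3.18 FPKM in mKO and 2.47 FPKM in WT, and in the shorter coding transcript ENSMUST00000111278, with 1.60 FPKM in mKO and 1.27 FPKM in WT. Over coding transcripts alone *Cry2* had a log2 ratio of 0.03.

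The REV-ERB receptors, heme-binding repressors of *Arntl*, had nearly equal levels in the genotypes. *Nr1d1* (ENSMUSG00000020889, chr11:98767932-98775333, minus strand) had 1.97 FPKM in mKO and 1.83 FPKM in WT (log2 0.10). *Nr1d2* (ENSMUSG00000021775, chr14:18204054-18239127, minus strand) had 6.40 FPKM in mKO and 6.32 FPKM in WT (log2 0.02). Of genes of similar FPKM, 72.3% lay at least as far from 0 as *Nr1d1* and 91.7% as far as *Nr1d2*. Most of *Nr1d2* came from its coding transcript ENSMUST00000090543, with 5.61 FPKM in mKO and 5.72 FPKM in WT. In newborn brain *Nr1d2* was the more abundant receptor, by 3.25 times in mKO and 3.46 times in WT.

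The coding transcript of *Nr1d1*, ENSMUST00000064941, had 1.53 FPKM in mKO and 1.61 FPKM in WT, below WT while the gene sum lay above it. The processed transcript ENSMUST00000139220 (781 bases) made the difference, with 0.434 FPKM in mKO and 0.212 FPKM in WT. *Nr1d1* overlaps the end of *Thra*, the thyroid hormone receptor alpha gene on the opposite strand, over 1075 bases (chr11:98767932-98769006), and 488 bases of the coding *Nr1d1* transcript lie there. *Thra* had 229 FPKM in mKO and 228 FPKM in WT, 116 and 125 times the level of *Nr1d1*. The libraries kept the strand, but whether it was used in counting is not stated, so *Nr1d1* is uncertain at this level. The short transcript has 0 of its bases in the overlap. *Nr1d2* has *Thrb*, the thyroid hormone receptor beta gene, as its neighbour without an overlap, and *Thrb* had 0.768 FPKM in mKO and 0.975 FPKM in WT.

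*Dbp* (ENSMUSG00000059824, chr7:45705088-45710203, plus strand), a PAR bZIP factor and a direct E-box output of the clock, had 2.97 FPKM in mKO and 3.66 FPKM in WT, a ratio of 0.812 (log2 -0.29). It was the only clock gene beyond 1.2-fold, yet 25.8% of 4896 genes of similar FPKM lay at least as far from 0. Its coding transcript ENSMUST00000080885 had 2.46 FPKM in mKO and 2.75 FPKM in WT. The retained-intron transcript ENSMUST00000211748 had 0.511 FPKM in mKO and 0.679 FPKM in WT, and another, ENSMUST00000210120, was at the floor in mKO and had 0.226 FPKM in WT. All 3 *Dbp* transcripts with a level were lower in mKO, but over coding transcripts alone the log2 ratio was -0.16 and within 1.2-fold. The 3′ end of *Dbp* overlaps *Sphk2* on the opposite strand, which had 6.07 FPKM in mKO and 6.30 FPKM in WT.

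*Arntl* peaks at one phase of the adult cycle, and its ratio to genes that peak at the other was taken within each library. Whether these ratios reflect the loop in newborn brain was not tested. *Arntl* over *Dbp* was 2.46 in mKO and 2.09 in WT, whereas *Arntl* over *Nr1d1* was 3.71 in mKO and 4.18 in WT. *Arntl* over *Per2* was 3.26 in mKO and 3.37 in WT, and over *Per1* it was 0.781 in mKO and 0.763 in WT. The ratio was thus higher in mKO against *Dbp* and *Per1* and lower against *Nr1d1* and *Per2*.

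At transcript level, 29 of the 42 clock transcripts had more than 0.3 FPKM in either library, 8 were at the floor in both, 2 were at the floor only in mKO and 1 only in WT. Of the 27 with a WT FPKM above 0.3, 1 was above 2-fold, the *Per3* processed transcript, where 4.16% of 50321 transcripts were. It stood just inside the minimum, at 0.301 FPKM in WT. Of the 27, 1 was below 0.5-fold, the 496-base *Per1* fragment, where 13.6% of transcripts were. A minimum on WT alone favours lower values in mKO, and with a mean above 0.3 FPKM in place of it, 3 of 29 were above 2-fold against 9.43% of 50873 transcripts, and 1 was below against 8.93%. The added ones were the *Per1* decay transcript and the short *Nr1d1* transcript. The counts above 2-fold were near their shares. The count of 1 below 0.5-fold was under its shares, but with so few clock transcripts only by a few.

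**Figure D3:**
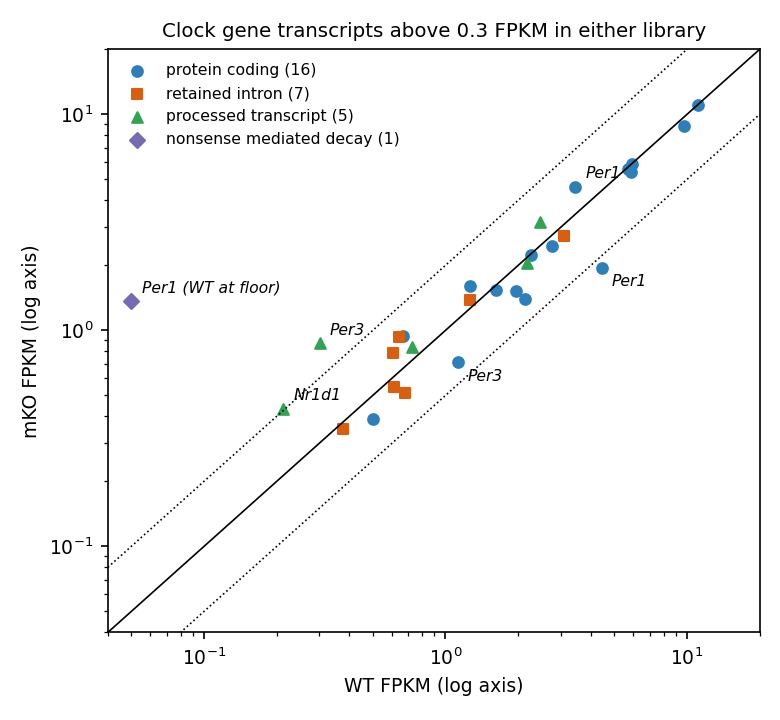
FPKM in mKO (y axis, log) against WT (x axis, log) for the 29 clock transcripts above 0.3 FPKM in either library, with the number of each annotation in the legend, a solid line for equal values and dotted lines at 2-fold. Most points lie near the solid line, the *Per3* and *Nr1d1* processed transcripts and the *Per1* decay transcript lie beyond the upper dotted line, the last drawn at 0.05 FPKM for the floor in WT, and the 496-base *Per1* fragment at 1.95 and 4.43 FPKM lies beyond the lower one.

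The spread of the clock transcripts narrowed with their level, as it did for all transcripts. The median distance of the log2 ratio from 0, here with no pseudocount, was 0.41 for 11 clock transcripts (the *Per1* decay transcript left out) with a mean between 0.3 and 1 FPKM, against 0.57 for all transcripts. It was 0.26 for 12 between 1 and 5 FPKM, against 0.28, and 0.03 for 5 above 5 FPKM, against 0.10. The 496-base *Per1* fragment lay in the middle range at a log2 ratio of -1.18, and the *Per3* processed transcript in the lowest at 1.53. Among the 8 clock genes with at least 2 transcripts above 0.3 FPKM, the share that lay on other transcripts had a median of 6.29%, against 8.84% over 10203 genes, and apart from *Per1* and *Per3* it ran from 2.71% for *Nr1d2* to 10.4% for *Nr1d1*.

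More coding clock transcripts were lower than higher in mKO. With no pseudocount, the lower ones ran from a log2 of -0.0039 for *Clock* ENSMUST00000202651 to -1.18 for the 496-base *Per1* fragment. Of the 16 coding clock transcripts above 0.3 FPKM, 13 were lower in mKO, where 50.3% of all 27922 coding transcripts were. Of the 13 of other annotations, among them the *Per1* decay transcript, 5 were lower, where 48.6% of 28137 such transcripts were, and 8 were higher. Summed by gene over coding transcripts, 9 clock genes averaged at least 1 FPKM and 8 of them were lower in mKO, with *Cry2* the exception, against 50.4% of 12458 genes and 53.3% of the 6877 genes in the same FPKM range. These 8 differences ran from a log2 of -0.33 for *Per1* to -0.02 for *Per2*, and among them were *Dbp* at -0.16, *Cry1* at -0.14, *Arntl* at -0.13 and *Nr1d1* at -0.07. *Per3*, below that minimum, was at -0.59. The long coding pair of *Per1* summed higher in mKO (log2 0.11), so its place among the 8 came from the 496-base fragment. Coding transcripts made up 77.5% of clock gene FPKM in mKO and 81.5% in WT, and processed transcripts summed to 7.37 FPKM in mKO and 5.88 FPKM in WT. Members of 1 library are not replicates, and the count of genes carries no test. The counts by coding annotation were not among the planned results.

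Beyond the 10 genes, 40 genes of the wider clock were listed by role, and 34 of them averaged at least 1 FPKM. Of these, 23 were higher in mKO and 11 lower, where 51.2% of all 15686 genes with that mean were higher. Their median log2 ratio was 0.05 against 0.0043 for all genes, and the count carries no test. Above 1.2-fold were 4 and below it 2, shares to be read against the 10% and 10.3% of all genes given above.

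Among the paralogs and receptors of the activator arm were the 2 widest gaps of the 34 genes with a mean of at least 1 FPKM. *Arntl2*, the paralog of *Arntl*, had 7.35 FPKM in mKO and 2.07 FPKM in WT (log2 1.78), but 5.68 FPKM of this in mKO came from a 238-base processed transcript at the floor in WT. Without it *Arntl2* had 1.67 FPKM in mKO and 2.07 FPKM in WT, on the opposite side (log2 -0.29). *Npas2*, the paralog of *Clock*, had 1.40 FPKM in mKO and 2.97 FPKM in WT (log2 -1.03), of which a 484-base coding fragment had 0.319 FPKM in mKO and 1.76 FPKM in WT. Its full-length transcript had 1.08 FPKM in mKO and 0.974 FPKM in WT, so the gap in *Npas2* as in *Arntl2* and *Per1* lay in a short transcript. *Rora*, an activator at ROR elements, had 8.56 FPKM in mKO and 9.70 FPKM in WT, and its relative *Rorb* had 5.94 FPKM in mKO and 5.89 FPKM in WT.

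The transcription factors of the output arms gave mixed values. *Hlf*, a PAR bZIP relative of *Dbp*, had 4.46 FPKM in mKO and 3.60 FPKM in WT (log2 0.30), opposite to *Dbp*, although its longest coding transcript had 2.94 FPKM in mKO and 2.98 FPKM in WT. *Ciart*, a repressor of CLOCK and ARNTL, had 1.40 FPKM in mKO and 1.06 FPKM in WT (log2 0.37). Its coding transcripts were low and lay on both sides. ENSMUST00000159739 had 0.612 FPKM in mKO and 0.150 FPKM in WT, and ENSMUST00000036418 had 0.182 FPKM in mKO and 0.587 FPKM in WT. *Bhlhe40*, which competes for E-boxes, had 3.28 FPKM in mKO and 3.72 FPKM in WT (log2 -0.18), and *Cipc*, a partner of CLOCK, had 17.8 FPKM in mKO and 19.7 FPKM in WT (log2 -0.15). Of these 7 factors 2 were above 1.2-fold and none below.

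Of the enzymes that set the stability of PER and CRY, the kinases and phosphatases had a median distance from 0 of 0.07. For the ubiquitin enzymes it was 0.14, against 0.11 over all genes. None of the 8 kinases and phosphatases was beyond 1.2-fold, where 10% of all genes were above and 10.3% below. With 8 genes, 0 cannot be set apart from these shares. The outer values were those of *Gsk3b*, with 55.1 FPKM in mKO and 51.0 FPKM in WT, and *Gsk3a*, with 31.4 FPKM in mKO and 36.2 FPKM in WT. *Csnk1e*, casein kinase 1 epsilon, which marks PER for degradation, had 66.7 FPKM in mKO and 62.5 FPKM in WT, and *Ppp1ca*, a phosphatase catalytic subunit, had 1.24 FPKM in mKO and 1.38 FPKM in WT. Of the ubiquitin enzymes, *Btrc*, which targets PER for degradation, had 12.2 FPKM in mKO and 11.1 FPKM in WT. *Usp2*, a deubiquitinase under clock control, was beyond 1.2-fold with 1.93 FPKM in mKO and 2.46 FPKM in WT (log2 -0.33), and *Fbxl21*, an F-box protein gene, had 1.63 FPKM in mKO and 1.79 FPKM in WT. The 6 partners of the PER complex lay closest to 0, from *Wdr5* at a log2 of -0.03 and *Nono* at -0.01 to *Sfpq* at 0.06 and *Timeless* at 0.07.

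Of 9 genes of signalling in the suprachiasmatic nucleus, the hypothalamic site of the master clock, 4 had a mean of at least 1 FPKM, and all 4 were higher in mKO, as were 51.2% of all genes with that mean. *Avp*, arginine vasopressin, had 17.0 FPKM in mKO and 13.5 FPKM in WT (log2 0.32), and *Lhx1*, a factor of suprachiasmatic development, had 3.94 FPKM in mKO and 3.32 FPKM in WT (log2 0.24). Both are also made outside that nucleus. Other hypothalamic genes went different ways. *Otp* had 2.95 FPKM in mKO and 1.87 FPKM in WT and *Sim1* had 1.08 FPKM in mKO and 0.818 FPKM in WT, while *Hcrt* had 0.781 FPKM in mKO and 2.02 FPKM in WT. Their part in the *Avp* value was not tested. The other 5 suprachiasmatic genes were below the minimum, 3 of them lower in mKO. *Prok2*, a peptide signal of the nucleus, had 0.444 FPKM in mKO and 1.07 FPKM in WT, a wider gap than those of the 4. *Vip*, the main coupling peptide, had 0.339 FPKM in mKO and 0.376 FPKM in WT, and *Nms* was at the floor in mKO and had 0.0541 FPKM in WT. *Vipr2*, the receptor of VIP, and *Six6* were higher in mKO, *Vipr2* at 0.754 FPKM in mKO and 0.504 FPKM in WT.

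**Figure D4:**
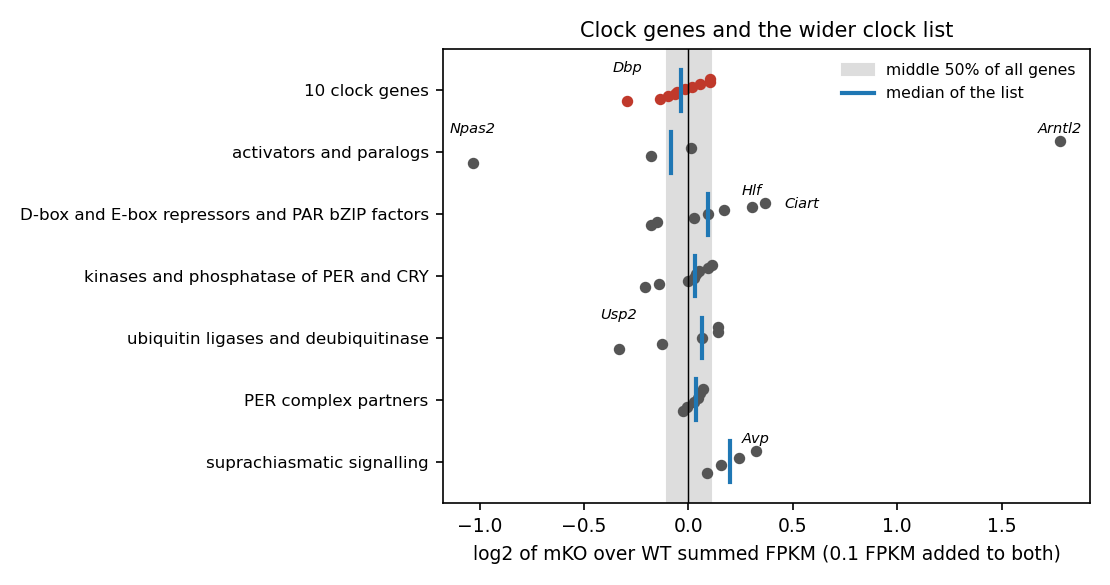
Log2 of mKO over WT summed FPKM, 0.1 FPKM added to both (x axis), for the 10 clock genes in red and the members of each wider list with a mean of at least 1 FPKM in grey (y axis), with the list's median as a blue line and the middle 50% of all genes as a band. The clock genes lie between -0.29 for *Dbp* and 0.10, and the widest points, *Arntl2* at 1.78 and *Npas2* at -1.03, rest on short transcripts.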

How the data were processed

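RNA of 6 newborn brains per genotype was pooled, depleted of ribosomal RNA (Ribo-Zero Gold) and made into a strand-specific library by the authors. Per the labels, reads were handled with bcl2fastq, Trimmomatic 0.36, HISAT2 2.1.0 and Cuffdiff on GRCm38.p5. For the Cuffdiff version, read filters and use of strand, details were not given in the sources used here. Deposited by the authors were FPKM of Ensembl transcripts, with 1e-05 in place of 0. Their ratio, log2 ratio, p and q columns and a second table with a subset of transcripts were not used.

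Software was pandas 2.3.3 and numpy 2.4.6 under python 3.11.15, with matplotlib 3.10.9 for plots. All 42 clock transcripts were found in GENCODE M21 (99.5% of all identifiers). FPKM were summed per gene name. Log2 ratios used a pseudocount of 0.1 FPKM. Transcripts needed a WT FPKM above 0.3 and a ratio above 2 or below 0.5 to be counted, and genes a mean of at least 1 and a ratio beyond 1.2-fold. The share that lay on other transcripts is the sum of absolute differences in transcript shares, divided by 2. Similar genes had a mean FPKM between 0.5 and 2 times that of the gene. No test was run, since each genotype had 1 library. The summaries were tested on simulated data.

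Named in the text are the 10 genes, their transcripts above 1 FPKM or past a threshold, in each wider list the 2 genes farthest from 0 in each direction, and *Thra* and *Thrb* as neighbours. Other transcripts, hypothalamic and suprachiasmatic genes below the minimum, and overlapping genes were named after their values were seen. The genes and lists were chosen with earlier results of these data known. The value of 1 gene that this rule names is not reported here.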

Additional observations from a re-analysis of the deposited data

How the results depend on the processing

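The median log2 ratio of the clock genes ran between -0.07 and -0.03 under the listed alternatives, which changed the pseudocount, the scaling between libraries, the minimum FPKM, or the transcripts summed, where the -0.07 is over coding transcripts and leaves *Per3* below the minimum, and with *Per3* kept, an alternative chosen after seeing the data, it was -0.10. That of the wider list ran between 0.03 and 0.05. The number of clock genes more than 1.2-fold lower in mKO was 0 with a mean of at least 5 FPKM, which leaves *Dbp* out, and 0 at 1.5-fold. Increased clock transcripts numbered 3 with the 0.3 FPKM minimum on mKO only, 3 with it on the mean, 3 with no minimum, and 0 with a minimum of 1 FPKM on WT. Decreased ones numbered 3 with no minimum and 3 at 1.5-fold. Apart from the minimum on the mean, shares of all transcripts at these settings were not counted. With no minimum, the increased ones include a *Per1* transcript near the floor in both libraries, and the decreased ones include transcripts at the floor in mKO. Of single genes, the sign of *Per3*, *Nr1d1* and *Nr1d2* turned over coding transcripts alone, at log2 -0.59, -0.07 and -0.03. No paired analysis was possible because mKO and WT are 1 library each. Depth in reads is unknown, and 1 pooled library per genotype gives no error. The part that the division of shared fragments had in the *Per1*, *Per3* and *Clock* transcript values was not tested.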
